A study of Mus musculus with 8 samples.

Results

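Runs of neighbouring 200 bp tiles whose DNA methylation differed were collected from mouse proximal colon organoids, small epithelial cultures grown from colon crypts. The distinct tiles of all 8 deposited tables on chromosomes 1 to 19 were pooled, tiles no more than 500 bp apart were merged, and merged regions holding 6 or more distinct tiles were kept. This gave 642 runs out of 37962 merged regions, or 1.69% of regions, and they held 5011 of the 52403 pooled tiles (9.56%). The runs were chosen by the measured differences of the same 4 comparisons in which they are described, so their differences are given as a description, with no test. A tile is called gained or lost in a comparison where the authors' deposited table lists it, which needs a difference of at least 20 percentage points and a q-value of at most 0.01. The direction of a run in a comparison is the sign of the summed difference of its listed tiles there, and the mean over those tiles is its mean difference.

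Methylation was read by reduced representation bisulfite sequencing in 8 libraries, in 4 groups of 2, each with organoid line 1 and organoid line 3. All organoids, controls included, came from male mice of about 40 days that were heterozygous for a Cre-activable BrafV600E allele (Braf+/LSL), from the first 2.5 cm of the colon. BrafV600E is a constitutively active form of the kinase BRAF. In the first group lentiviral Cre had switched the allele on and the organoids were grown in Base medium, without the niche factors of the full medium, at 5 months. The other groups carried the empty lentiviral backbone in full medium, at 5 months, at 2 months, and at 12 months (line 1) or 14 months (line 3). Each library is labelled with a final 3 weeks of culture. The BrafV600E comparison sets the first group against the 5-month empty-vector group of the same line, and the long culture comparison sets the oldest empty-vector group against the 2-month group of the same line. The 4 comparisons share no library, but both comparisons of a line share that line. The oncogene and the change of medium cannot be told apart, since both separate the same libraries. Each table compares 1 library with 1 library, so lines 1 and 3 are the only replicates, and no read counts were used here, so the depth behind a tile is unknown. A tile that a table does not list may be unchanged or unread. Label fields disagree for 2 libraries: the source name of line 1 with BrafV600E gives line 3, and a tag of the 14-month culture gives 2 months. The titles were followed, and whether these labels bear on differences between the lines was not tested.

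CpG islands are stretches of DNA with many CpG sites that cover the starts of many genes and are mostly unmethylated in normal cells. The islands of developmental regulators, such as homeobox genes, are often wide, can extend across the gene body, and are often bound by Polycomb complexes in tissues where the gene is silent. In ageing epithelium and in colon tumours, islands of this class are known to gain methylation. The assay reads CpG-rich fragments, so such islands are covered by many neighbouring tiles.

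RefSeq promoter windows of 300 bp (250 bases before to 50 bases after the start, build GRCm38.p6) are shown for 5 runs. They let the reader see how many CpG sites a promoter window on a run holds. Not every base of a window lies in a listed tile. Capitals mark each CG. Hoxd9 and Hoxd11 lie in 1 homeobox cluster, on either side of Hoxd10, and their runs differed in long culture. Epha7 went opposite ways in the BrafV600E and long culture comparisons, Sall1 lies in 1 of the widest runs, and Tmem132e gained in every comparison. These 5 were chosen after their values were seen.
Hoxd9: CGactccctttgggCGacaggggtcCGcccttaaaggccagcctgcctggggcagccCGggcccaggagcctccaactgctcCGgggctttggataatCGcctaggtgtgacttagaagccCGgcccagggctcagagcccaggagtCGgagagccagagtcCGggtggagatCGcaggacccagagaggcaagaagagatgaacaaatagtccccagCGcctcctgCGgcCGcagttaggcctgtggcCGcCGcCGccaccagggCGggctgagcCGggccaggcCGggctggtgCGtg
Hoxd11: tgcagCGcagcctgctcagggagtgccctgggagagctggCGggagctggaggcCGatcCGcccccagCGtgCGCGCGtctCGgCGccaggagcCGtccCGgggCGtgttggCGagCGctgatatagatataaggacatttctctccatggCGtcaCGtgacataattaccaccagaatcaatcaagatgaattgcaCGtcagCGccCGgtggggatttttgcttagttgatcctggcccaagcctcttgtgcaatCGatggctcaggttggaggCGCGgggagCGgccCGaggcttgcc
Epha7: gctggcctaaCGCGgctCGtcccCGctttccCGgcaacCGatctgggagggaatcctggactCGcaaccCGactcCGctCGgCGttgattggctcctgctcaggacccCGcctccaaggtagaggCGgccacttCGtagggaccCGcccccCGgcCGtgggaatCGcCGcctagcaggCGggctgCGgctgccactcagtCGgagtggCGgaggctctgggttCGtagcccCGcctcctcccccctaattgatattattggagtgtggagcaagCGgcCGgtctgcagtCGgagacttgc
Sall1: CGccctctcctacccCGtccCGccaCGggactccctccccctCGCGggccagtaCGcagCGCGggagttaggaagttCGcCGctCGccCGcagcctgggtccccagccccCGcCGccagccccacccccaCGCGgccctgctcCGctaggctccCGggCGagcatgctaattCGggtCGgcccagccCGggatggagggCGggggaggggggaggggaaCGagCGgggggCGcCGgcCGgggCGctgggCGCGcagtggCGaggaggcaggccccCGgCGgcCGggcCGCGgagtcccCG
Tmem132e: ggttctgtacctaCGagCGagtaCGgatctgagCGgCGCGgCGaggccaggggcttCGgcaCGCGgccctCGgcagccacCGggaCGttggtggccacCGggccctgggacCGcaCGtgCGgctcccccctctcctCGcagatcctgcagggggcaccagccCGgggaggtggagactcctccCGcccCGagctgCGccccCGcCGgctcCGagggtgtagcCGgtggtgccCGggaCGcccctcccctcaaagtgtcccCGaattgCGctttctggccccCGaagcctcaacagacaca
The Hoxd9 window (chr2:74697513-74697812, plus strand) holds 20 CG sites. The Hoxd11 window (chr2:74682073-74682372, plus strand) holds 25. The Epha7 window (chr4:28812881-28813180, plus strand) holds 28, the Sall1 window (chr8:89042813-89043112, minus strand) 39, and the Tmem132e window (chr11:82388650-82388949, plus strand) 31. The median over all 20063 RefSeq promoter windows was 14 CG sites. In the authors' deposited tables the tile on the Hoxd9 window at 74697601 to 74697800 differed by 33.6 and 52.4 points with BrafV600E in lines 1 and 3 and by -29.0 points in long culture of line 1. The Hoxd11 tile at 74682001 to 74682200 gained in all 4, by 25.3 and 48.9 points with BrafV600E and by 66.6 and 79.9 points in long culture, line 1 first, in the authors' deposited tables. The Epha7 tile at 28812801 to 28813000 was at -20.3 and -35 points with BrafV600E, line 1 first, in the authors' deposited tables and gained 41.1 points in long culture of line 3. On the Sall1 window the authors' deposited tables list tiles only for long culture of line 3, at 57.7 and 70 points. The Tmem132e tile at 82388601 to 82388800 gained 43.1 and 54.1 points with BrafV600E in lines 1 and 3, and 59.1 points in long culture of line 3, in the authors' deposited tables.

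The runs held from 6 to 25 tiles, with a median of 7, and 111 of them held 10 or more. They were 1200 to 5800 bp wide, with a median of 1600 bp, and a median of 85.7% of a run's length lay in listed tiles. Most merged regions were far smaller, since 30821 of the 37962 (81.2%) were single tiles. At the threshold, 344 regions held 5 tiles and stayed outside, and 237 held 6 and entered. The 5-tile regions lay near a gene end in 65.7% of cases and the 6-tile runs in 67.1%, where near means at most 1 kb from the annotated start or end of a protein-coding gene. Of the 5-tile regions listed in each comparison, 85.8% and 65.9% gained with BrafV600E in lines 1 and 3, and 72.4% and 96.3% in long culture. For 6-tile runs these shares were 89.6%, 63.1%, 65.9% and 98.2%. Chromosome 2 held the most runs, at 68, and chromosome 16 the fewest, at 10.

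In the BrafV600E comparison 517 of the 642 runs gained and 57 lost in line 1, and 410 gained and 199 lost in line 3. In long culture 352 runs gained and 149 lost in line 1, and 609 gained and 13 lost in line 3. Over all 37962 merged regions, 18.7% gained and 11.3% lost with BrafV600E in line 1, and 22.5% gained and 40.7% lost in line 3. The same background was 6.26% gained and 11.6% lost in long culture of line 1, and 22.8% and 14.8% in line 3. The rule used these comparisons, so nothing is read from a run being listed more often than other regions. Of the runs listed in a comparison, 90.1% and 67.3% gained with BrafV600E in lines 1 and 3, against 60.8% and 34.7% of the merged regions of 1 to 5 tiles. In long culture 70.3% and 97.9% of listed runs gained, against 32.3% and 59.0% of the smaller regions. Single tiles gained in 54.9%, 30.4%, 21.5% and 50.3% of cases in the same order of comparisons, and runs of 10 or more tiles in 89.1%, 68.9%, 80.8% and 98.2%. Where 1 tile was the unit, 89.8% and 72.5% of the listed tiles in runs gained with BrafV600E in lines 1 and 3, and 75.2% and 98.4% in long culture. Of all 52403 pooled tiles, 19.4% gained and 9.32% lost with BrafV600E in line 1, and 22.7% and 33.5% in line 3. For long culture the tile background was 6.35% gained and 9.15% lost in line 1, and 28.9% and 11.3% in line 3. The comparisons also listed different shares of the runs' 5011 tiles, at 42.0% and 45.5% with BrafV600E, 22.9% in long culture of line 1 and 75.1% in long culture of line 3. Long culture of line 3 therefore weighed most in the choice of the runs, and 355 runs held 6 or more tiles listed in it alone, against 103, 109 and 18 in the others.

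**Figure D1:**
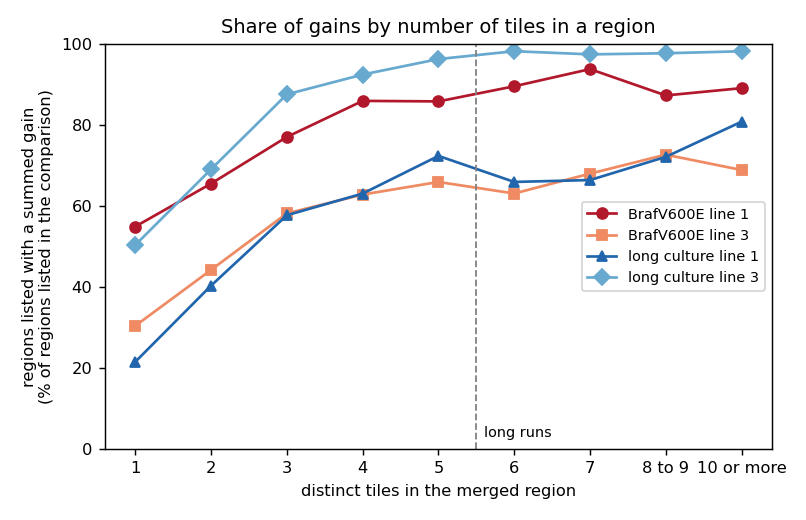
Share of listed merged regions that gained methylation (y axis, %) against the number of distinct tiles in the region (x axis), with 1 line per comparison. The share rises from 50.3% for single tiles to 98.2% for runs of 10 or more tiles in long culture of line 3, and from 30.4% to 68.9% with BrafV600E in line 3.

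**Figure D2:**
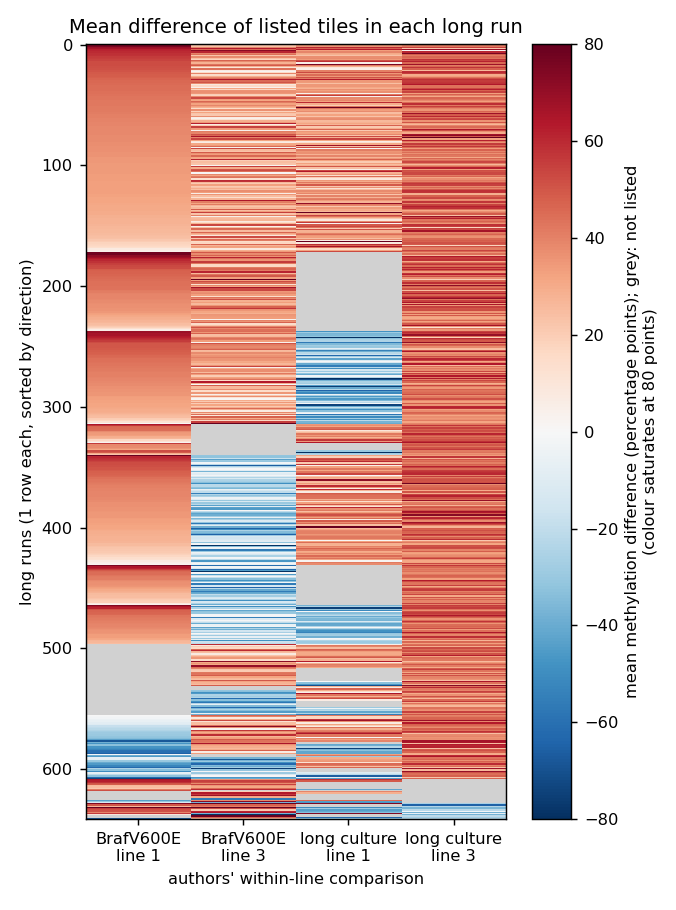
Mean difference of each of the 642 runs (rows) in each of the 4 comparisons (columns), in percentage points, with gains and losses on a colour scale and runs without a listed tile left blank. Long culture of line 3 is a gain in 609 of 622 listed runs, while the other columns hold 57, 199 and 149 runs that lost.

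Runs were also chosen from the tables of 1 line and read in the other line, whose tables then took no part in the choice. The 509 runs chosen from line 3 alone gained in 91.3% of the 447 listed with BrafV600E in line 1, against 65.8% of the smaller regions. For long culture of line 1 the share was 72.5% of 386, against 38.2% of the smaller regions. The 153 runs chosen from line 1 alone gained in 71.6% of 141 with BrafV600E in line 3, against 47.4%, and in 98.0% of 148 in long culture of line 3, against 75.1%. Runs chosen from the long culture tables alone gained with BrafV600E in 91.2% of 352 in line 1 and 67.8% of 360 in line 3, against 71.6% and 43.8% of the smaller regions. Runs chosen from the BrafV600E tables alone gained in long culture in 63.7% of 182 in line 1 and 96.1% of 233 in line 3, against 38.0% and 68.4%. In each of these 8 readings the runs gained in a larger share than the smaller regions did. Neighbouring runs and all tiles of a comparison come from the same libraries, so the lines stay the only replicates and no test was made.

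With BrafV600E 544 runs were listed in both lines, and 332 gained in both, 158 gained in line 1 and lost in line 3, 35 did the reverse and 19 lost in both. Over all merged regions the same 4 outcomes took 6.68%, 3.42%, 1.22% and 3.79%. The direction matched in 64.5% of these runs and in 69.8% of the smaller regions listed in both lines. In long culture 493 runs were listed in both lines, and 345 gained in both, 2 gained in line 1 and lost in line 3, 139 did the reverse and 7 lost in both. The background over all merged regions was 3.6%, 0.316%, 2.52% and 1.4%. The direction matched in 71.4% of these runs and in 62.3% of the smaller regions. The sizes of the mean differences were weakly related between the lines, with Pearson's r of 0.11 over the 544 runs with BrafV600E and 0.13 over the 493 in long culture, as a description in which all runs share the same libraries.

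Over the 4 comparisons, 426 runs were listed in all, 176 in 3, 34 in 2 and 6 in 1. The most frequent pattern was a gain in all 4, seen in 173 runs (26.9%) against 1.11% of all merged regions. This pattern needs listing in all 4, which the rule favours. Such listing was seen in 426 of 642 runs and in 890 of 37320 smaller regions, so nothing is read from the difference in these shares. A further 91 runs gained in all but BrafV600E line 3, and 77 in all but long culture of line 1. Within line 3, 195 of 590 runs listed in both contrasts lost with BrafV600E and gained in long culture (33.1%, against 35.2% of the smaller regions listed in both), and 11 did the reverse (1.86%, against 16.8%). Within line 1, 34 of 455 lost with BrafV600E and gained in long culture (7.47%, against 11.9%), and 119 did the reverse (26.2%, against 39.3%). In both line 3 and line 1 the more frequent of these orders was also the more frequent in the smaller regions, so it is not particular to the runs.

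The run with the most tiles lay at Lbx1, a homeobox regulator of muscle precursors and spinal interneurons, with 25 tiles at chr19:45230401-45236200. Its mean differences were 36.5 points over 10 gained tiles and 25.5 points over 10 gained and 2 lost tiles with BrafV600E in lines 1 and 3. In long culture they were 40.6 points over 7 tiles and 46.9 points over 21 tiles, all gained. The tiles of Lbx1 ranged from -36.2 to 70.5 points in BrafV600E line 3 of the authors' deposited tables and from 21.4 to 67 points in long culture of line 3. Its tile at 45234001 was listed in all 4, at 35.5, 39.0, 21.4 and 52.1 points in the order of the comparisons in the authors' deposited tables. Mn1, which encodes a transcriptional co-regulator, had 22 tiles. It gained 43.1 and 26.3 points with BrafV600E and 63.9 points over 21 tiles in long culture of line 3, but 2 tiles lost in long culture of line 1, with a mean of -40.3 points. Sall1, a zinc finger regulator of kidney development, had 21 tiles, and 19 of them gained in long culture of line 3 (mean 58.8 points). In BrafV600E line 3 it had 2 gained and 2 lost tiles, and its mean of -12.7 points there has no single direction.

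Most of the other runs with many tiles also had a full or nearly full gain in long culture of line 3 and a thinner, partly mixed listing elsewhere. Long culture of line 3 listed the most tiles, so ranking runs by tiles favours those listed fully there. Nothing is therefore read from the thinner listing elsewhere. At Tlx3, a homeobox regulator of excitatory neurons, all 19 tiles gained in long culture of line 3 (mean 60.2 points, range 31.9 to 91.4), while BrafV600E line 3 listed 2 gained and 2 lost. At Ntn1, which encodes the guidance cue netrin-1, all 15 tiles gained there (mean 60.5 points), and BrafV600E line 1 gained 46.9 points over 7 tiles. Emx2, Lmx1b and Pou3f1, homeobox genes of forebrain, limb and glia, gained means of 51.1, 50.8 and 52.9 points in long culture of line 3 over 13, 14 and 14 tiles. Igf2bp1, which encodes an mRNA-binding protein of fetal tissues, gained 57.7 points over 14 tiles there and 51.5 points over 6 tiles with BrafV600E in line 1. Gata3 differed from these, since its 18-tile run inside the gene gained 49.2 points over 7 tiles and 40.9 points over 8 tiles with BrafV600E in lines 1 and 3, and 25.3 points in long culture of line 3, with 1 lost tile of 13. In long culture of line 1 Gata3 had 2 gained and 3 lost tiles, with a mean of -6.62 points. Pcdh7, an adhesion protocadherin, was mixed with BrafV600E, with 2 gained and 6 lost tiles in line 1 and 5 and 5 in line 3. It gained 28.2 points over 3 tiles and 48.2 points over 13 tiles, 1 of them lost, in long culture of lines 1 and 3.

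**Figure D3:**
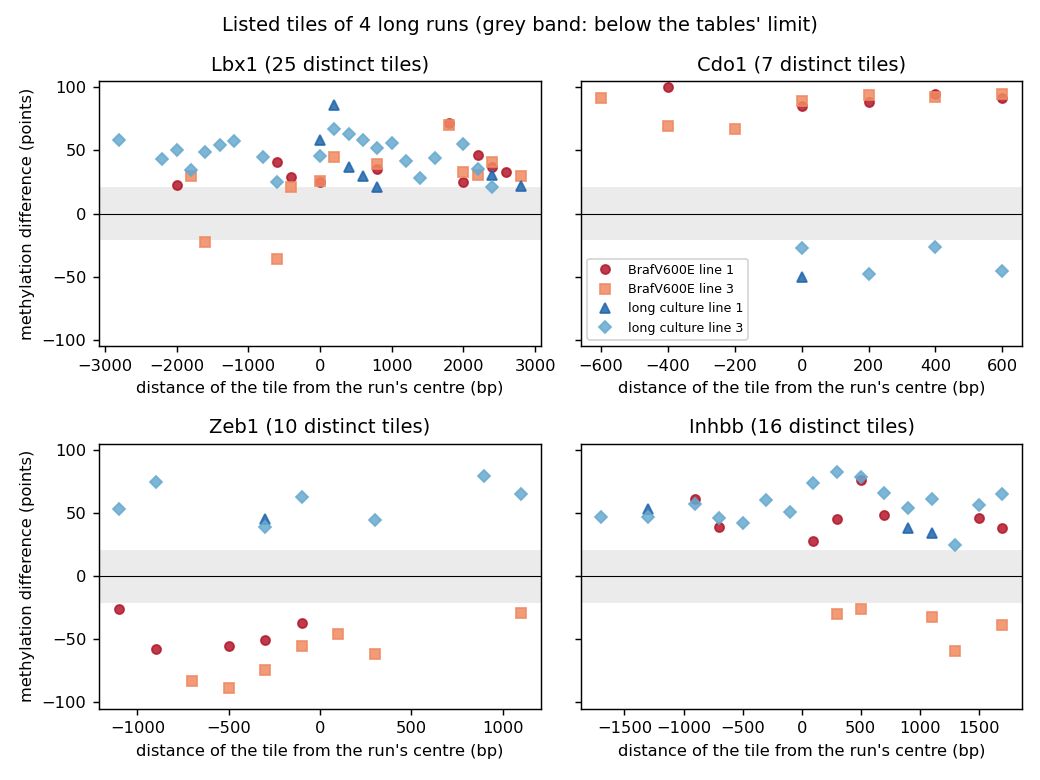
Difference of each listed tile (y axis, percentage points) against its distance from the centre of the run (x axis, bp). The runs are those at Lbx1, Cdo1, Zeb1 and Inhbb, with 1 colour per comparison. Cdo1 gained with BrafV600E in both lines and lost in long culture, Zeb1 did the opposite, and Inhbb lost in BrafV600E line 3 only.

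Some runs gained throughout. Sim2, a bHLH-PAS regulator of neural development, had 7, 10, 3 and 6 tiles listed in BrafV600E lines 1 and 3 and long culture of lines 1 and 3, all gained, with means of 51.9, 49.4, 41.2 and 40.8 points. Tmem132e, a transmembrane protein gene, had 8, 11, 3 and 13 listed tiles, all gained, with means of 46.0, 45, 34.7 and 56.1 points. The 4 means of Sim2 differed by less than its tiles did, which ranged from 24.2 to 87.5 points in BrafV600E line 3. Pax6, a paired-box regulator of eye and endocrine cells, also had 0 lost tiles here. Its 6-tile run inside the gene gained 62.0 and 45.2 points at 1 tile each with BrafV600E, and 63.2 and 70.2 points over 3 and 4 tiles in long culture. At Sox17, an endodermal factor and a known colorectal methylation marker, the 9-tile run at chr1:4491801-4493800 gained means of 53.8, 47.3, 51.4 and 54.1 points over 6, 8, 7 and 9 tiles. Bnc1, which encodes basonuclin, gained 42.1, 41.0, 59.6 and 44.5 points, with 1 lost tile of 7 in long culture of line 3. Sox17 and Bnc1 were named after their values were seen. Grip1, a scaffold of glutamate receptors, had all 7 tiles gained in 3 comparisons, with means of 67.8 and 62.0 points with BrafV600E and 55.8 points in long culture of line 3, and 0 tiles listed in long culture of line 1.

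A small set gained with BrafV600E in both lines and did not gain in long culture. There were 14 such runs (2.18% of runs, against 3.21% of all merged regions, so the pattern is not more frequent among runs), at Hoxd9, Dclk2, Slc26a10, Foxd1, Cdo1, Prdm11, Chst15, Fzd5, Hs3st3b1, Bcl11b, Hoxd10, Nbl1, Mnx1 and Jakmip1, and 6 of them had 0 tiles listed in either long culture comparison. Cdo1, which encodes cysteine dioxygenase, had the largest mean gains of these at its 7-tile run, 91.9 and 85.5 points in lines 1 and 3. In long culture the same run lost, with means of -50.3 points (1 tile, line 1) and -36.7 points (4 tiles, line 3). Its tiles gained from 85.3 to 100 points in BrafV600E line 1 of the authors' deposited tables, which leaves little room for methylation of those tiles in the 5-month control of line 1. Hs3st3b1, which encodes a heparan sulfate sulfotransferase, gained 58.4 points over 6 tiles and 51.9 points over 5. Foxd1, a forkhead gene of kidney stroma, gained 50.4 and 38.0 points over 5 tiles in each line, and Mnx1, a homeobox gene of motor neurons and pancreas, 48.2 and 54.8 points over 6 and 3 tiles. None of these 3 runs had a tile listed in long culture. Fzd5, which encodes a Wnt receptor of the intestinal epithelium, gained 39.4 points over 3 tiles and 64.8 points over 6 tiles with BrafV600E. Its run lost methylation (-34.0 points at 1 tile and -38.5 points over 3 tiles) in long culture of lines 1 and 3. Slc26a10 and Hoxd10 had tiles of both directions in long culture of line 3, so their place in this set rests on the summed sign there.

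The reverse set gained in both long culture comparisons and did not gain with BrafV600E in either line. It held 23 runs (3.58%), and 0.959% of all merged regions had this pattern. The pattern needs listing in both long culture comparisons, which the rule favours, so nothing is read from this difference. Zeb1 encodes a transcriptional repressor of epithelial genes, and its run lost methylation with BrafV600E (-45.4 points over 5 tiles and -62.5 points over 7 tiles), and gained 45.2 points at 1 tile and 59.8 points over 7 tiles in long culture. The Zeb1 tile at 5592001 was listed in all 4, at -50.5 and -74.5 points with BrafV600E and at 45.2 and 39.0 points in long culture in the authors' deposited tables. Epha7, a receptor for ephrin ligands, lost methylation (-38.0 points over 11 tiles) with BrafV600E in line 3 and gained 43.7 points over 11 tiles in long culture of line 3. In line 1 it had 1 gained and 2 lost tiles with BrafV600E and 1 gained tile in long culture. Slitrk5, which encodes a neuronal transmembrane protein, lost methylation (-68.4 points over 5 tiles) with BrafV600E in line 3 and gained 32.8 and 46.6 points over 4 and 8 tiles in long culture. With BrafV600E in line 1 Slitrk5 had 1 gained and 1 lost tile, with a mean of -7.68 points, so its loss there rests on the summed sign. At the run that Ndufa13 and Tssk6 share, 8 and 4 tiles lost methylation with BrafV600E (-62.0 and -27.2 points), while 3 and 2 tiles gained 46.7 and 22.9 points in long culture. Dlgap4, a postsynaptic scaffold gene, and Stk32c, a kinase gene, gained 42.8 and 42.9 points over 5 tiles each in long culture of line 1, and 36.6 and 40.8 points over 6 tiles each in line 3. With BrafV600E these 2 runs had 2 and 1 lost tiles, in line 3 only.

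Of the 642 runs, 19 lost in both lines with BrafV600E, against 3.79% of all merged regions. In long culture 7 runs lost in both lines, against 1.4% of all merged regions. The shares of runs lay near these, so nothing is read from the counts. Besides Zeb1, Epha7, Slitrk5 and Ndufa13 with Tssk6, the first set held a 13-tile run beside Zfp503, which encodes a zinc finger repressor. It lost methylation (-52.7 points over 6 tiles) in line 1, and line 3 listed 1 gained and 3 lost tiles there (mean -39.3 points). A second Zfp503 run of 14 tiles ended 1000 bp before it. That run held 5 gained and 3 lost tiles in line 1 (mean 24.0 points) and 12 gained and 1 lost tile in line 3 (mean 52.0 points). The 3 lost tiles of line 1 lay at the end that faces the other run. Joining both runs, as a gap of 1000 bp does, gave a mean of -3.60 points in line 1 and 30.5 points in line 3, so the border decides the direction there. The losses in long culture were at Hoxd9, Slc26a10, Cdo1, Marcksl1, Fzd5, Hoxd10 and Ahdc1. Marcksl1, which encodes an actin-binding protein, lost methylation in long culture, at -63.1 points over 6 tiles in line 1 and -27.9 points at 1 tile in line 3. The same 6 Marcksl1 tiles gained, by a mean of 46.5 points, with BrafV600E in line 3.

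Other runs went opposite ways in the 2 lines under the same contrast. With BrafV600E, Inhbb, which encodes the activin beta-B subunit, gained 47.8 points over 8 tiles in line 1 and lost methylation (-37.1 points over 5 tiles) in line 3. In long culture all its listed tiles gained, by 42.0 points over 3 tiles and 57.1 points over 16. The 10-tile run inside Igf2, an imprinted growth factor gene, gained 35.0 points over 2 tiles and lost methylation (-42.4 points over 5 tiles) with BrafV600E in lines 1 and 3, and a second run at the gene did the same, at 48.9 and -45.6 points. Sox11, a neural progenitor factor, gained 45.7 points over 9 tiles in line 1 and held 1 gained and 4 lost tiles in line 3. The widest gap with BrafV600E among the Hox runs was at Hoxb2, where 6 tiles gained 45.9 points in line 1 and 6 tiles lost methylation in line 3 (mean -89.7 points), from -100 to -78.6 points in the authors' deposited tables. Fzd10, a Wnt receptor gene, did the reverse, with 2 lost tiles at a mean of -46.9 points in line 1 and a mean of 65.6 points over 10 gained and 1 lost tile in line 3. Prdm16, a regulator of brown fat and stem cells, lost methylation (-67.8 points at 1 tile) in line 1 and gained 43.7 points over 9 tiles in line 3. Hoxb2 and Prdm16 were named after their values were seen.

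In long culture the lines parted at Mn1, Kcna1 and Irx5, where line 1 lost and line 3 gained. Kcna1, a potassium channel gene, lost methylation (-42.4 points over 2 tiles) in line 1 and gained 61.0 points over 13 tiles in line 3. Irx5, an Iroquois homeobox gene, lost methylation (-29.5 points over 3 tiles) and gained 64.5 points over 13. With BrafV600E this Irx5 run lost methylation (-44.5 points over 3 tiles) in line 1 and was not listed in line 3, whereas a second run beside it gained 68.5 points over 6 tiles and 35.2 points over 3. The opposite order was seen at an 11-tile run at chr11:120185801-120188600, outside genes and 34450 bp from Slc38a10. It gained 74.9 points over 7 tiles in long culture of line 1 and lost methylation (-25.6 points over 2 tiles) in line 3. With BrafV600E the same run gained 73.8 and 88.7 points over 5 and 10 tiles. Rims2, a presynaptic gene, gained over 9 tiles in each line in long culture, and with BrafV600E it lost methylation (-28.9 points over 6 tiles) in line 1 and had 4 gained and 1 lost tiles in line 3.

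The Hox clusters, whose genes set position along the body axis, held the densest group of runs. From Evx2 to Hoxd8, 7 runs with 55 tiles lay within 50600 bp at chr2:74655201-74705800. Both Evx2 runs and the 13-tile run at Hoxd10 and Hoxd11 gained in long culture, with means of 21.0, 22.8 and 21.3 points in line 1 and 52.1, 72.1 and 62.8 points in line 3. The 8-tile run at Hoxd13 gained 40.4 and 44.1 points in long culture and 56.9 points over 5 tiles with BrafV600E in line 3, and lost methylation (-24.1 points at 1 tile) with BrafV600E in line 1. Further along, the 6-tile run inside Hoxd10 gained 51.1 and 61.2 points with BrafV600E. In long culture it lost methylation at 1 tile in line 1 (-40.7 points). Line 3 listed 1 gained and 3 lost tiles of it there, with a mean of -2.06 points. At Hoxd9, 6 and 9 tiles gained 56 and 51.3 points with BrafV600E, and 1 and 3 tiles lost methylation in long culture (-29.0 and -36.5 points). Hoxd8 gained 32.1 and 34.5 points with BrafV600E, with 1 lost tile in line 3, and held 1 lost and 1 gained tile in long culture of lines 1 and 3. Within 1 cluster, the runs from Evx2 to Hoxd11 thus gained on the mean in long culture in both lines, and the Hoxd9 run lost there. The Hoxd10 run had no single direction in line 3, and its sign there changed with the limits on tiles. Whether this order along the cluster exceeds chance was not tested.

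**Figure D4:**
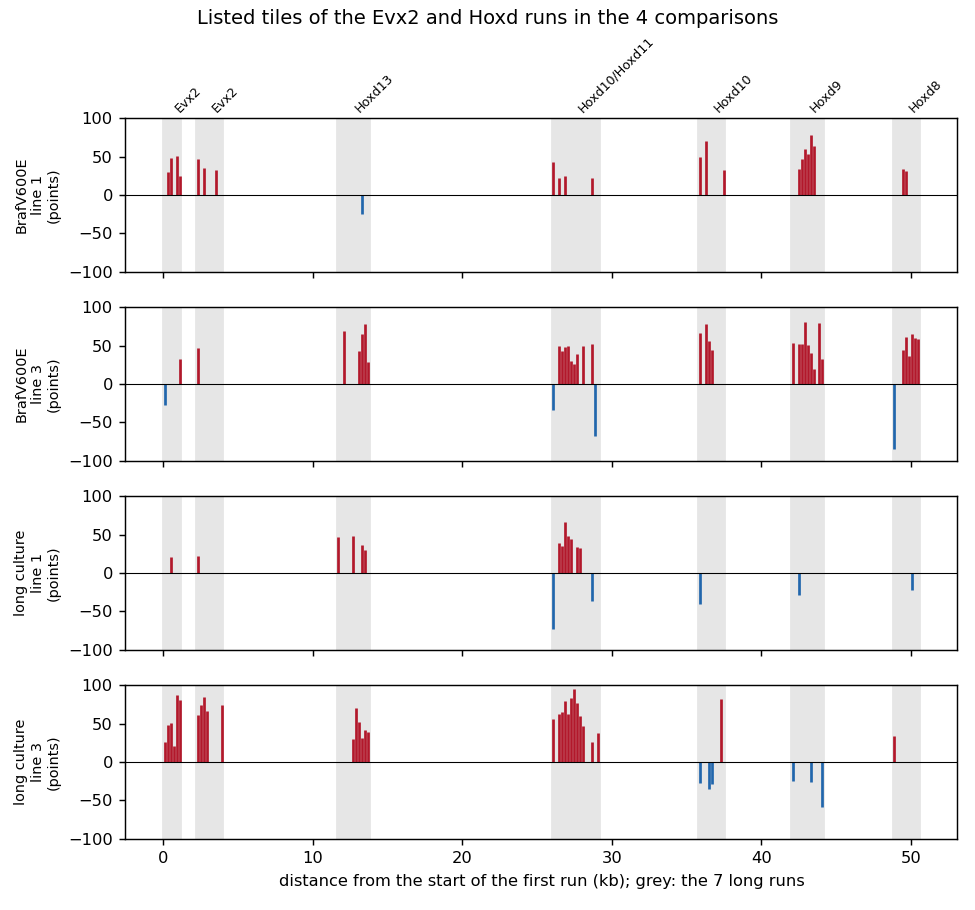
Difference of each listed tile (y axis, percentage points) in the 7 runs between Evx2 and Hoxd8, with 1 panel per comparison. Tiles are placed by distance from the start of the first run (x axis, kb), and grey bands mark the runs. The means of the Evx2 to Hoxd11 runs are above 0 in long culture in both lines. Single tiles can differ, as with 2 lost tiles of 9 at Hoxd10 and Hoxd11 in line 1. The Hoxd9 run has means of -29.0 and -36.5 points there.

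Elsewhere, 4 runs with 29 tiles lay at Hoxa10 and Hoxa13 within 32600 bp, and Msx1, Hmx1 and Uncx had 3 runs each in their neighbourhoods. A gap of 20000 bp joined 98 of the 642 runs into 44 groups. There were 32 genes with 2 or more runs. Runs of 1 gene went both ways in 5 and 10 of them with BrafV600E in lines 1 and 3, and in 5 and 2 of them in long culture.

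The runs lay at genes far more often than small regions did. Of the 642, 470 (73.2%) lay near a gene end as defined above, against 14.9% of the smaller regions. A wide region reaches a window more easily, and by midpoint the shares were 55.6% and 13.7%. A further 137 runs lay inside genes and 35 outside. Of the 619 runs off chromosome 18, 319 (51.5%) held a RefSeq start. The runs touched 606 protein-coding genes, 33 runs touched 2 or more, and for those the run cannot be assigned to 1 gene. The size of the differences was similar in the centre and the outer parts of runs. In long culture of line 3 the median difference was 47.9 points in the central part of a run (the middle of 3 equal parts) and 46.4 points in the outer parts, and with BrafV600E in line 1 the medians were 36.2 and 36.9 points.

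**Figure D5:**
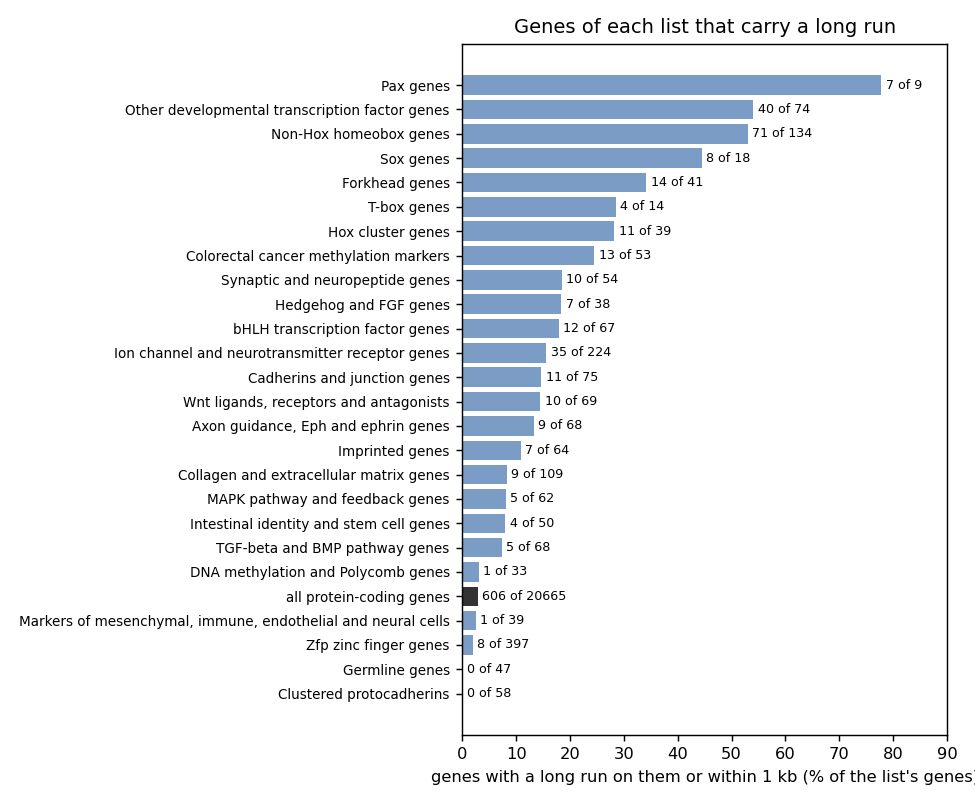
Share of the genes of each list with a long run on them or within 1 kb (x axis, % of genes in the list), one bar per list, from 0. Pax genes stand at 77.8%, against 2.93% of all protein-coding genes. The pooled developmental transcription factors (42.2%) have no bar.

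Genes for developmental transcription factors made up a large part of the genes on runs. A gene counted if the run overlapped its span with 1 kb on each side. Of 396 such genes in 8 lists, 167 (42.2%) had a run, against 606 of 20665 protein-coding genes (2.93%). Genes without any listed tile cannot have a run, and among genes with one the shares were 46.4% and 6.61%. Of the 167, 143 had runs that gained and 9 runs that lost with BrafV600E in line 1, and 107 and 47 in line 3. In long culture 103 gained and 28 lost in line 1, and 157 gained and 2 lost in line 3. Over all 606 genes these counts were 489 and 54, 376 and 192, 333 and 138, and 572 and 11. The lists were chosen with earlier results of these data known, so the shares are a description. The number of developmental genes on runs ranged from 59 to 222 over the ways of choosing the runs.

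By family, 7 of 9 Pax genes, 71 of 134 homeobox genes outside the Hox clusters, 8 of 18 Sox genes, 14 of 41 forkhead genes, 11 of 39 Hox genes, 4 of 14 T-box genes and 12 of 67 bHLH genes had a run. Another 40 of 74 came from the remaining factors, among them Gata, Sall, Zic and Prdm genes. At the 11-tile run of Pax7, a regulator of muscle stem cells, 4 tiles gained 37.8 points with BrafV600E in line 1 and 10 tiles gained 42.6 points in long culture of line 3, with 0 tiles listed in the other comparisons. Foxd3, a forkhead gene of the neural crest, gained 43.3 points over 5 tiles with BrafV600E in line 1 and 39.8 points over 10 tiles in long culture of line 3, with 1 to 3 listed tiles elsewhere. Tbx2, a T-box repressor, gained 44.9, 16.1, 34.6 and 43.6 points in the order of the comparisons, with 1 lost tile in each BrafV600E comparison. Among homeobox genes outside the Hox clusters, 67 gained and 0 lost in long culture of line 3, and in BrafV600E line 3 they split into 44 and 20. Sox genes split evenly in BrafV600E line 3, with 4 gained and 4 lost, and Sox21 gained 72.2 points over 6 tiles there while it lost methylation (-44.2 points over 2 tiles) in long culture of line 1.

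Signalling genes carried fewer runs than the developmental transcription factors. Among genes with a listed tile, 15.4% of Wnt genes, 20% of hedgehog and FGF genes and 8.62% of TGF-beta and BMP genes had a run. The same share was 46.4% for the pooled developmental factors and 6.61% for all protein-coding genes. The TGF-beta and BMP share lay near that of all genes, so nothing is read from it. Of 69 Wnt ligands, receptors and antagonists 10 had a run, at Draxin, Fzd5, Fzd10, Notum, Ror2, Rspo1, Shisa3, Wnt3, Wnt4 and Wnt9b. Shisa3, an antagonist, gained 30.9 and 34.9 points over 4 tiles each with BrafV600E and 49.7 points over 8 tiles in long culture of line 3. Wnt4 lost methylation (-34.9 points over 3 tiles) with BrafV600E in line 1 and gained 33.5, 40.0 and 37.2 points in the other comparisons. Ror2, a receptor for Wnt5a, lost methylation in 3 comparisons (-73.8, -39.7 and -44.6 points) and gained 46.8 points in long culture of line 3. Hedgehog and FGF genes had 7 of 38, and Gas1, a hedgehog co-receptor, gained 32.8, 35.0 and 49.4 points in BrafV600E line 1 and long culture of lines 1 and 3. Shh itself gained 44.6 points over 6 tiles and 33.7 points over 2 with BrafV600E, and 46.7 points over 5 tiles in long culture of line 3. Of 68 TGF-beta and BMP genes 5 had a run, including the antagonist Nog, which lost methylation (-33.4 points over 3 tiles) in long culture of line 1 and gained 43.2 points over 7 tiles in line 3.

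Neuronal genes with a run included 35 of 224 ion channel and receptor genes (15.6%), 10 of 54 synaptic genes (18.5%) and 9 of 68 axon guidance genes (13.2%). Of all protein-coding genes 2.93% had one. All 35 channel genes gained in long culture of line 3, and 29 gained and 5 lost with BrafV600E in line 1. Over all genes on runs these splits were 572 and 11, and 489 and 54, so the channel genes lay near them. Grin2b, an NMDA receptor subunit gene, gained 40.8, 36.5 and 51.2 points in BrafV600E lines 1 and 3 and long culture of line 3. Kcnq5, a potassium channel gene, lost methylation (-43.2 points over 5 tiles) with BrafV600E in line 1 and gained 49.3 points over 3 tiles in line 3. Among 75 cadherin and junction genes 11 had a run (14.7%). Cdh2, which encodes N-cadherin, had 14 tiles and gained 41.8, 32.6, 42.9 and 55.2 points, with 0 lost tiles. Extracellular matrix genes had 9 of 109 (8.26%). Adamts2, which trims procollagen, gained 34.0 and 49.5 points with BrafV600E and 34.0 points in long culture of line 3.

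Of 53 colorectal cancer methylation markers 13 had a run (24.5%), the highest share among the lists other than the developmental ones. The lists overlap, since Alx4, Eya4, Foxe1, Gata4, Runx3 and Sox17 are also on the developmental lists. With BrafV600E 9 of the marker genes gained and 2 lost in line 1, and 9 and 3 in line 3. Over all genes on runs these splits were 489 and 54, and 376 and 192, so nothing particular to the markers is read from them. Eya4, a marker used in stool and tissue assays, gained 46.7, 42.3 and 62.9 points over 4, 3 and 8 tiles in BrafV600E lines 1 and 3 and long culture of line 3. Ikzf1, another marker gene, gained 21.9, 45.5, 38.2 and 45.9 points. Tmeff2 stood apart, with 1 gained and 1 lost tile in BrafV600E line 1, a mean of -76.1 points over 3 lost tiles in line 3 and a gain of 67.8 points over 4 tiles in long culture of line 3. Of 50 genes of intestinal identity and stem cells 4 had a run (8%, against 2.93% of all protein-coding genes), at Cdx1, Gata4, Msi1 and Car4. At Cdx1, an intestinal homeobox regulator whose run is shared with Gm52351, gains of 62.8 and 54.5 points with BrafV600E were joined by 48.9 points over 4 tiles in long culture of line 1, and 0 tiles were listed in line 3. Gata4, a regulator of the proximal gut, had 2 runs inside the gene, which gained 26.8 and 46.9 points and 39.2 and 43.4 points with BrafV600E. Both gained in long culture of line 3, by 39.0 and 40.2 points. Car4, a carbonic anhydrase of surface colonocytes, gained 61.4 points over 3 tiles and held 1 gained and 2 lost tiles with BrafV600E in lines 1 and 3.

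Of 62 MAPK pathway and feedback genes 5 had a run (8.06%, against 2.93% of all protein-coding genes). Egr3 and Egr4 encode immediate-early factors induced by this pathway. Egr3 gained 43.8 and 34.6 points over 5 and 6 tiles with BrafV600E and 32.9 points over 9 tiles in long culture of line 3. Egr4 gained 36.4 points over 4 tiles in line 1, had 1 gained and 2 lost tiles in line 3, and gained 48.1 points over 9 tiles in long culture of line 3. Erbb4, a receptor of the EGF family, gained 48.4 and 26.6 points with BrafV600E, lost methylation (-39.1 points over 3 tiles) in long culture of line 1 and gained 65.3 points over 9 tiles in line 3. Imprinted genes had 7 of 64 (10.9%). Rasgrf1, an imprinted exchange factor gene, gained 64.3 and 65.5 points over 3 and 6 tiles in long culture. Dio3, an imprinted deiodinase gene, gained 48.6, 46.7 and 61.3 points in BrafV600E lines 1 and 3 and long culture of line 3.

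The remaining lists had shares near or below the 2.93% of all protein-coding genes, and nothing is read from them. DNA methylation and Polycomb genes had 1 of 33 (3.03%), at Tet1, which encodes an oxidase of methylated cytosine. Tet1 gained 36.6 and 25.6 points over 5 and 2 tiles with BrafV600E, lost methylation (-40.4 points at 1 tile) in long culture of line 1 and gained 35.0 points over 3 tiles in line 3. Markers of mesenchymal, immune, endothelial and neural cells had 1 of 39 (2.56%), at Prox1, a factor of lymphatic endothelium that is also on the homeobox list. These tables hold no expression, so the cell makeup of the organoids could not be checked against markers and its part in the differences was not tested. Germline genes had 0 of 47 and clustered protocadherins 0 of 58, although 31 and 44 of them had a listed tile. Zfp zinc finger genes, a large family of repressors, had 8 of 397, which is 2.02% of the list.

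Promoters in runs were rich in CpG. Of 20063 RefSeq promoter windows of 300 bp, 367 from 333 genes overlapped a run, with a median of 27 CG sites (quartiles 20 and 37). Windows in regions of 2 to 5 tiles had a median of 21, those on single tiles 20, and the 17470 windows with no listed tile 12. The motif CCGG, a palindrome that reads the same on both strands and holds 1 CG, was found in 94.3% of windows in runs and in 63.5% of all windows. It was also in 93.6% of windows on single tiles, and the assay reads CpG-rich fragments, so this share is near that of any listed tile. Windows in runs that gained and lost with BrafV600E had medians of 28 and 26 in line 1 and 27 and 27 in line 3, in long culture of line 1 medians of 28 and 26, and in long culture of line 3 medians of 27 and 22, the last over 5 windows. No promoter of chromosome 18 was used here.

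Within most runs the listed tiles moved together, as they did within most smaller regions. Among runs with 2 or more listed tiles, all went the same way in 85.3% of 495 with BrafV600E in line 1, 64.2% of 519 in line 3, 72.4% of 308 in long culture of line 1 and 93.9% of 606 in line 3. The median SD over the tiles of a run was 13.3, 19.14, 15.9 and 14.9 points. BrafV600E line 3 was the most mixed within runs, with 186 runs holding tiles of both directions, against 73, 85 and 37 in the others. Of smaller regions with 2 or more listed tiles, 146 of 1526 and 409 of 2884 held both directions with BrafV600E in lines 1 and 3. In long culture 83 of 571 and 180 of 2282 did, so moving together is not particular to the runs. Of single tiles in runs that both lines listed, directions matched in 75.8% of 942 with BrafV600E and 78.3% of 871 in long culture, against 73.7% and 65.0% of such tiles outside runs. Mean gains of 50 points or more were reached by 83 and 61 runs with BrafV600E in lines 1 and 3, and by 51 and 226 runs in long culture. The median run that gained did so by 37.9, 34.5, 35.1 and 46.2 points in this order of comparisons. By tile, the median gain in runs was 39.0, 38.3, 36.1 and 47.4 points. In smaller regions it was 43.5, 44.9, 40.6 and 42.9 points, so gains in runs were larger only in long culture of line 3.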

How the data were processed

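Methylation of 200 bp tiles was compared by the authors within each organoid line, 1 library against 1 library, in 4 comparisons given as 8 tables of gained and of lost tiles. The submitters' processing notes name Trim Galore 0.4.4, FastQC 0.11.7, Bismark 0.14.3, methylKit 1.7.4 and the build GRCm38 (mm10). The coverage minimum and the enzyme are not given in these sources. Reads were 50 bp single-end, per the labels' protocols. Per the file headers each deposited row gives the p-value and q-value of a tile and its difference in methylation level, in percentage points, and lost tiles carry negative differences. By the values, each listed tile differs by at least 20 points with a q-value of at most 0.01. Counts of reads were not used here, so depth is unknown and no interval was given.

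Tiles of chromosomes 1 to 19 were pooled and merged (gap of at most 500 bp, at least 6 tiles) in Python 3.11.15 with pandas 2.3.3, and the merging was tested on simulated data. Genes and promoters came from RefSeq tables of GRCm38.p6; the gene table has no strand, so both gene ends were used. No per-sample column of another series was found (0). Runs and the 25 gene lists were chosen with earlier results of these data known. The named runs are the 12 with most tiles, the 4 with most listed tiles of each pattern over the comparisons, the 4 with the largest differences per contrast, and the run with most tiles of each list; other runs were named after their values were seen. The comparisons entered the choice of runs, so no test was made. Alternatives changed the gap, the tile minimum, the difference and q limits, the tables used to choose runs, how direction was called, and the window at gene ends.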

Additional observations from a re-analysis of the deposited data

Results flagged for a closer look

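For 9 of the runs named by the rule for named runs, every listed tile of 1 line moved one way and every listed tile of the other line the opposite way under the same contrast. The difference between the lines was not tested, since each line gives 1 comparison. Over all 642 runs, 73 had only gained tiles in line 1 and only lost tiles in line 3 with BrafV600E, among them Hoxb2, and 18 the reverse, among them Prdm16. In long culture these counts were 1 and 103. By summed direction, 1142 smaller regions gained in line 1 and lost in line 3 with BrafV600E, and 428 did the reverse. In long culture these were 118 and 817, so the more frequent order is not particular to the runs. With BrafV600E the mean difference of line 1 lay above that of line 3 by 73.7 points at 1110032F04Rik (34.9 points over 4 tiles against -38.9 points over 2), by 77.4 points at Igf2 (2 tiles against 5) and by 84.9 points at Inhbb (8 against 5).

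In long culture line 1 minus line 3 was -93.9 points at Irx5 (3 tiles against 13), -103.4 points at Kcna1 (2 against 13), -104.2 points at Mn1 (2 against 21), -88.5 points at Prox1 (1 against 6) and -75.3 points at Tet1 (1 against 3). It was 100.6 points at the run near Slc38a10 (7 against 2). At Prox1 and Tet1 the value of line 1 rests on 1 tile.

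Outside the rule, which stops at chromosome 19, 10 merged regions of 6 or more tiles lay on chromosome X, at Chst7, Hs6st2, Sox3, Tmem28, Nhsl2, Nexmif, Dnaaf6b with Nup62cl, Irs4, Cnksr2 and Nhs. In long culture of line 3 those with a listed tile gained, from 38.8 points at Nhsl2 to 71.9 points at Irs4. Nhs had 0 tiles listed in long culture and gained 74.5 points over 6 tiles with BrafV600E in line 3.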

How the results depend on the processing

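Of 101 alternatives for the main values, 74 stayed within 1.5 times the count or within the 95% binomial interval of the share, and 27 did not. That interval takes runs as independent although they share libraries, so it is a yardstick of size and says nothing of replicate error. The number of runs was 345 for touching tiles, 986 at 5 or more tiles, 243 at 8 or more, 295 at 40 points, 253 from the BrafV600E tables and 392 from the long culture tables. Chosen from 1 line alone it was 153 to 509. The share near a gene end was 77.7% for touching tiles, 78.6% at 8 tiles, 76.9% at 40 points, 77.6% from the long culture tables and 79.4% in 2 kb windows. The gained share in BrafV600E line 3 was 73.0% at 40 points, 76.5% from the BrafV600E tables and 68.7% to 71.6% from 1 line alone. In long culture it was 76.4% (8 tiles), 63.7% (BrafV600E tables) and 78.2% (2 listed tiles) in line 1, and 96.3% (gap of 2000 bp), 96.1% (BrafV600E tables) and 99.5% (long culture tables) in line 3. The same direction was seen in both lines with BrafV600E in 75.5% of runs at 40 points and 72.8% from the BrafV600E tables. For long culture this was 76.4% at 8 tiles, 75.5% at 40 points, 64.9% from the BrafV600E tables and 79.5% with 2 listed tiles. The gained shares stayed above those of the smaller regions in each of these alternatives. The alternatives change which tiles are read, and no other cause was tested.

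Means of named runs that hold few or mixed tiles changed sign. In BrafV600E line 3 this was so for Sall1 (26.9 points), Tlx3 (5.93) and Igf2bp1 (-4.11) with touching tiles. It was so for Emx2 (-44.3), Sox11 (44.8) and Tbx2 (-48.9) at 40 points, for Ntn1 at 40 points or q under 0.001 (1.49), for Foxd3 at a gap of 2000 bp (-1.44), and for the 13-tile Zfp503 run at gaps of 1000 and 2000 bp (30.5). In BrafV600E line 1 the 14-tile Zfp503 run changed to -19.4 points with touching tiles and -3.60 at gaps of 1000 and 2000 bp, Epha7 to 0.44 at q under 0.001, Irx5 to 30.9 at gaps of 1000 and 2000 bp, Zbtb10 to 25.6 with touching tiles and Rasgrf1 to -52.4 at 40 points. In long culture of line 1 Igf2bp1 changed to -22.3 and Gm36722 to 30.9 with touching tiles, and Foxd3 to 1.19 and Tbx2 to -6.44 at a gap of 2000 bp. In long culture of line 3 Slc26a10 changed to 4.38 at q under 0.001 and 2.47 at gaps of 1000 and 2000 bp, Hoxd10 to 81.8 at 40 points and 6.74 at q under 0.001, and Itpka to -38.9 with touching tiles. No paired analysis was possible because the values come from no test and each comparison is already within a line. Without read counts, depth limits cannot be given.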

Other observations

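Further runs not described above also differed between the contrasts. Itpka, which encodes an inositol trisphosphate kinase, gained 61.0 and 72.3 points over 6 tiles each with BrafV600E and 33.2 points over 3 tiles in long culture of line 1, with 1 gained and 1 lost tile in line 3. Zbtb10, a zinc finger gene, gained 52.9 points over 9 tiles with BrafV600E in line 3 and 67 and 68.3 points over 4 and 8 tiles in long culture, with 1 gained and 1 lost tile in BrafV600E line 1. Spock1, a proteoglycan gene, gained 49.8 and 50.2 points with BrafV600E, lost methylation (-35.9 points over 2 tiles) in long culture of line 1 and gained 37.7 points over 3 tiles in line 3. Ahdc1 lost methylation in 3 comparisons (-66.5 points over 6 tiles with BrafV600E in line 1, -30.1 and -21.8 points in long culture) and gained 25.3 points over 2 tiles with BrafV600E in line 3. These runs were named after their values were seen.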
